A study of Homo sapiens with 13 samples.

Results

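The m6A summits described here are those that were weak in control MDA-MB-231 cells and had no counterpart in VIRMA-depleted cells. A summit is the single base at which a peak of m6A pull-down signal is highest, and the deposited list of the control, called NTC for non-targeting control, held 8377 of them. The summits were chosen by their score, a -log10 value given by the authors' peak caller, which had to be below 10, and by distance: no summit of the knockdown (KD) list might lie within 100 nt on the same chromosome. This rule chose 3560 summits, which are 42.5% of the NTC list and 63.5% of its 5608 weak summits, and they are called the absent weak summits below. Both lists entered the rule, so the scores and distances of these summits are descriptions and were not tested.

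MDA-MB-231 is an established human line of triple-negative breast cancer. The NTC, KD and knockout cells were all stable lines of it made by lentiviral infection and selection, at passage P2 per the labels, and the depleted gene is KIAA1429, also called VIRMA. MeRIP-seq sequences the mRNA fragments that an anti-m6A antibody binds, beside an untreated input, and was done with 1 pull-down and 1 input library for NTC and for KIAA1429 KD, and each condition has 1 summit list, so that no summit has a replicate. RNA-seq covered 3 libraries each of NTC and of KIAA1429 KO cells made with 2 guides, sg1 and sg2; the labels do not say whether a line is 1 clone, whether the 3 libraries came from separate cultures, or how the KD was made, and p-values below measure only the spread between these libraries. The extraction notes of the sg1 and sg2 libraries use the word KD where the genotype label says KO, and KD and KO cells are kept apart here.

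N6-methyladenosine is placed on nuclear pre-mRNA by a writer complex in which METTL3 and METTL14 form the methylating core and WTAP, VIRMA, ZC3H13, RBM15 or RBM15B, and CBLL1 form the part that holds the core at its targets. VIRMA is the large scaffold of that part and is known for directing methylation toward stop codons and 3′ untranslated regions. The mark is read by YTH domain proteins, several of which speed mRNA decay, and by IGF2BP proteins, which are known to stabilize bound transcripts. The commonest core of an m6A site is GGAC, with the methyl group on the A.

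Sequence was at hand for few absent weak summits, since no genome was used here, but 62 of them lie in a RefSeq promoter window, which runs from 250 nt before to 50 nt after a gene start (GRCh38.p14). Those with the highest scores in windows of protein-coding genes tested by RNA-seq are shown here, because they are the summits whose surrounding bases can be read. Each line gives up to 50 bases on either side of the summit on the strand of the named gene, 5′ to 3′, and capitals mark GGAC or its reverse complement GTCC.
PNPLA6: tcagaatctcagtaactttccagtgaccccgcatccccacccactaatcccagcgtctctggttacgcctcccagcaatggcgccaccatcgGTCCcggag
IDI1: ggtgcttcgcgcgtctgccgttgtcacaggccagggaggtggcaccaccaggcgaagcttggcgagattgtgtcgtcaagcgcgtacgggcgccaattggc
FEZF1: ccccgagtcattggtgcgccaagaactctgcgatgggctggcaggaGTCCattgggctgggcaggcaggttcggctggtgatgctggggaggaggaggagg
KDM5A: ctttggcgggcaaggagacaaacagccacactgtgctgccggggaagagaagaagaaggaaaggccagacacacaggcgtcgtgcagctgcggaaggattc
TXNDC12: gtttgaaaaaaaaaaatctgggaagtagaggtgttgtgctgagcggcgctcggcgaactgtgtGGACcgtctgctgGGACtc
ZEB1: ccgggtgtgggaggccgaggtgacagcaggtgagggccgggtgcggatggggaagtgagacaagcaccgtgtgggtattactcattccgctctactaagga
TBCK: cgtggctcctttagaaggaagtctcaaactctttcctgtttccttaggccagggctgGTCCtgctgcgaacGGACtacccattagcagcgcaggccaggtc
CCDC18: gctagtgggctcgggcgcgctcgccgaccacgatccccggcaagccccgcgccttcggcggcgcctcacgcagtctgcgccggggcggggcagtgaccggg

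The shown stretches are chr19:7534675-7534775 for PNPLA6, a lysophospholipase gene, and chr10:1049010-1049110 for IDI1, an enzyme of isoprenoid and cholesterol synthesis. FEZF1, a zinc finger transcription factor, is shown at chr7:122304555-122304655, and KDM5A, a histone H3 lysine demethylase, at chr12:389348-389448. TXNDC12, a thioredoxin-like protein of the endoplasmic reticulum, is shown at chr1:52055142-52055223, and ZEB1, a repressor of epithelial genes, at chr10:31318334-31318434. TBCK, a kinase-like gene, is shown at chr4:106316684-106316784, and CCDC18, a coiled-coil gene, at chr1:93180596-93180696. In TXNDC12 the summit lay 18 nt past the gene start, and in the other 7 it lay 14 to 174 nt before the start used in the table. The summit of the KDM5A window lies inside the span of CCDC77 and that of the TBCK window inside AIMP1. That of the CCDC18 window lies inside CCDC18 and also in the promoter window of TMED5, 233 nt before its start. The summit lists carry no strand, so which gene's RNA was pulled down at these places cannot be told from the lists.

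GGAC in either orientation stood in 4 of the 8 stretches, those of PNPLA6, FEZF1, TXNDC12 and TBCK, and in the gene's own orientation in TXNDC12 and TBCK. Over whole windows of 300 nt, 60 of the 62 windows with an absent weak summit held GGAC on either strand (96.8%), against 87.4% of all 35116 promoter windows. The longer motif GGACT, which contains the shorter one, stood in 39 of the 62 (62.9%, exact binomial interval 49.7 to 74.8%) and in 44.2% of all windows. A match is only a description of the letters. The share of summits in a promoter window was 1.89% (1.45 to 2.42%) for absent weak summits and 0.891% (0.520 to 1.42%) for weak summits with a KD summit. Of the 62, 14 lay at or past the start and 48 before it.

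A further absent weak summit fell inside a microRNA hairpin, MIR671, which lies at chr7:151238421-151238538 on the plus strand within CHPF2, a gene of chondroitin sulfate synthesis. Its summit, scored 3.36, is base 110 of the hairpin and is the capital letter below, and the nearest KD summit lay 441 nt away.
MIR671: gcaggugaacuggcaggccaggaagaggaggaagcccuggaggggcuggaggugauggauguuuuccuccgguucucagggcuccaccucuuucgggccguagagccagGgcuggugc

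Scores of the absent weak summits ran from 1.31 to 9.98 with a median of 5.42, and weak summits with a KD counterpart had a median of 6.70. Many share exactly the same score: the 3560 summits take 1236 distinct values, and 53 of them sit at 2.98. At the upper edge of the rule, summits in PSMB7, RAPH1 and KHNYN were all scored 9.98, whereas the lowest excluded scores without a KD summit were 10.04 in DNAJC6, 10.05 in KIF18B and 10.06 in RBM15B. At the distance edge, summits in MRPS27, ERC1 and ADAMTS15 had a KD summit just over 100 nt away and were taken, and weak summits in BTBD3, INHBA and ZNF354C had one exactly 100 nt away and were not.

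The lower the score of an NTC summit, the more often it had no KD counterpart. The share was 78.1% (exact binomial interval 72.6 to 82.9%, n = 265) below a score of 2, 67.4% from 4 to 6, 49.2% from 8 to 10 and 17.3% (13.3 to 22.0%, n = 306) from 20 up. Among all NTC summits scored 10 or more it was 31.7%, against 63.5% (62.2 to 64.7%) among the weak ones. These intervals cover counting error only, and summits of 1 gene share their source. In the opposite direction weak summits also lacked a counterpart more often. Of 4448 weak KD summits 1717 (38.6%) had no NTC summit within 100 nt, and of 1475 KD summits scored 10 or more 266 (18.0%) had none. The KD list is the shorter one, with 5923 summits, and the depth of the pull-down libraries is unknown here, so fewer methylated sites and fewer sites detected cannot be told apart.

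**Figure D1:**
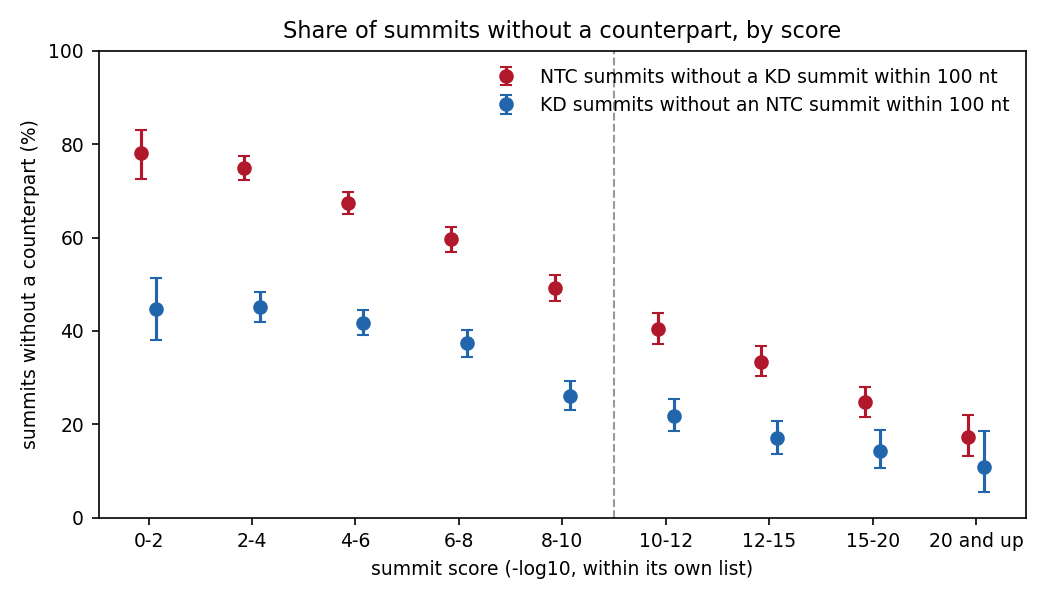
Share of summits (%) without a counterpart within 100 nt in the other list, by score bin (-log10), for NTC summits (red) and KD summits (blue); bars are exact binomial intervals at 95% and the dashed line marks the score of 10. Shares of NTC summits fall with the score from 78.1% to 17.3%. Those of KD summits are 44.6% below a score of 2 and 45.2% from 2 to 4, and fall from there to 10.9%.

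Many absent weak summits were not far from a KD summit. Of the 3560, 315 had one over 100 and up to 200 nt away, 347 lay over 200 and up to 500 nt away and 296 over 500 and up to 1000 nt away, so that 26.9% lay within 1000 nt of a KD summit. A further 560 lay up to 10000 nt away, 1021 up to 100000 nt and 984 farther, and 37 lay on contigs without a KD summit. The median distance was 19908 nt. RBM15B, a writer subunit that recruits the complex to RNA, shows the near case: its absent weak summit at chr3:51393179 was scored 8.76 and a KD summit of 8.45 lay 107 nt away. TET3, a 5-methylcytosine dioxygenase, is another, with absent weak summits 109, 222 and 344 nt from a KD summit.

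**Figure D2:**
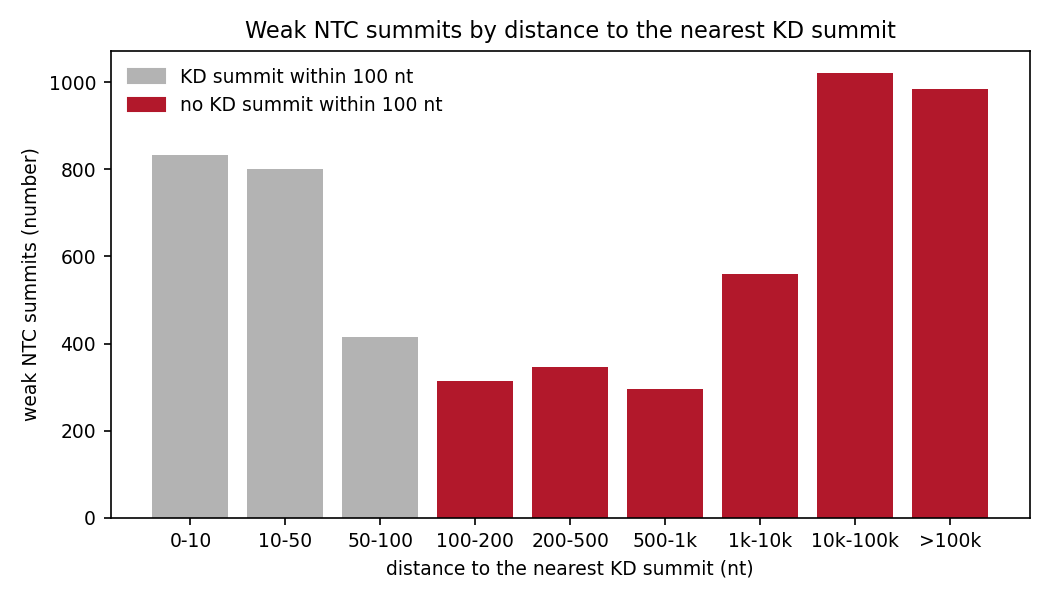
Number of weak NTC summits by distance (nt) to the nearest KD summit; grey bars have a KD summit within 100 nt and red bars do not. Red bars hold 315, 347, 296, 560, 1021 and 984 summits in order of distance, in bins of unequal width; 37 summits on contigs without a KD summit are not drawn.

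On the main chromosomes lay 3395 of the absent weak summits, and 2907 of these (85.6%) fell in the span of a single protein-coding gene, against 89.9% of weak summits with a KD counterpart. In no protein-coding span were 8.87%, against 4.95%, and in an lncRNA span alone 4.54%, against 2.07%. Counting only summits in a single lncRNA span, and leaving out a gene not reported here, 123 lncRNA genes held such a summit. Among them, chosen after their values were seen, LINC01128 had 3 absent weak summits scored 5.69 to 9.69 and no other weak summit, and its mean normalized count was 173 in NTC, 241 with sg1 and 232 with sg2. Along genes of known strand, 37.9% of 2425 absent and 38.1% of 1458 kept weak summits lay in the last 10% of the span. Within 1000 nt of the gene end the shares were 14.0% and 13.0%, within 3000 nt of it 35.8% and 38.8%, and within 200 nt of the gene start 1.44% and 0.892%; these differences were not tested. By chromosome the share of weak summits that were absent ran from 54.0% on chromosome 11 to 69.0% on chromosome X.

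The 2907 summits lay in 2364 host genes, of which 1942 held 1 and 422 held 2 or more. In 1168 hosts every NTC summit was an absent weak summit and the gene had no KD summit at all. Another 1143 hosts (48.4%) held a KD summit elsewhere in the gene, and 53 had a strong absent summit too and no KD summit. Of the 422 hosts with 2 or more, 141 had no KD summit.

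MKI67, the proliferation marker Ki-67 that coats mitotic chromosomes, had the most, 10 of its 13 NTC summits (chr10:128096659-128126423). They were scored 2.62 to 9.10 and stood between 10962 and 24968 nt from the gene start, 2535 to 16541 nt from the nearest KD summit. Its 2 KD summits, scored 14.4 and 8.16, both stood near the 3′ end, 7 and 33 nt from NTC summits of 13.8 and 8.11. MKI67 mRNA was at 3939, 3696 and 8691 normalized counts in NTC, 4502, 4135 and 3028 with sg1, and 4845, 5739 and 5456 with sg2. The knockout values lay within the range of the NTC libraries except sg1-3, which lay below it, and the log2 fold change in the mean of both guides was -0.15 ± 0.25 (SE; limma adjusted p = 0.777). Without NTC-3 that fold change was 0.24. In bulk RNA, less RNA per cell and fewer cells with that RNA cannot be told apart, here and below.

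FAT1, a giant cadherin, had 6 of 10 NTC summits absent and weak, while its summit of 21.1 had a KD summit of 9.33 within 16 nt. NAV1, a neuron navigator protein, had 6 of 8, and DST, a cytoskeletal linker, 5 of 7. SPATA13, a guanine nucleotide exchange factor for small GTPases, had only absent weak summits, 5 of them scored 2.43 to 8.94, and the KD summit nearest to each lay 602305 to 682086 nt away, outside the gene. AHNAK2, a large scaffold-like protein, kept more than it lost: 5 absent weak summits stood among 10 NTC summits with a KD counterpart. KMT2A, a histone H3 lysine methyltransferase, ZNFX1, an RNA helicase-like antiviral protein, TET3 and HIVEP3, a zinc finger protein, had 5 each. Among these 10 genes NAV1 passed the test with sg2 (log2 fold change -1.22 ± 0.27, limma adjusted p = 0.0235) and none passed with sg1 or in the mean of both guides. NAV1 was at 723, 696 and 1380 in NTC, 878, 789 and 810 with sg1 and 528, 325 and 316 with sg2, so sg2 lay below NTC without overlap and sg1 lay within its range.

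**Figure D3:**
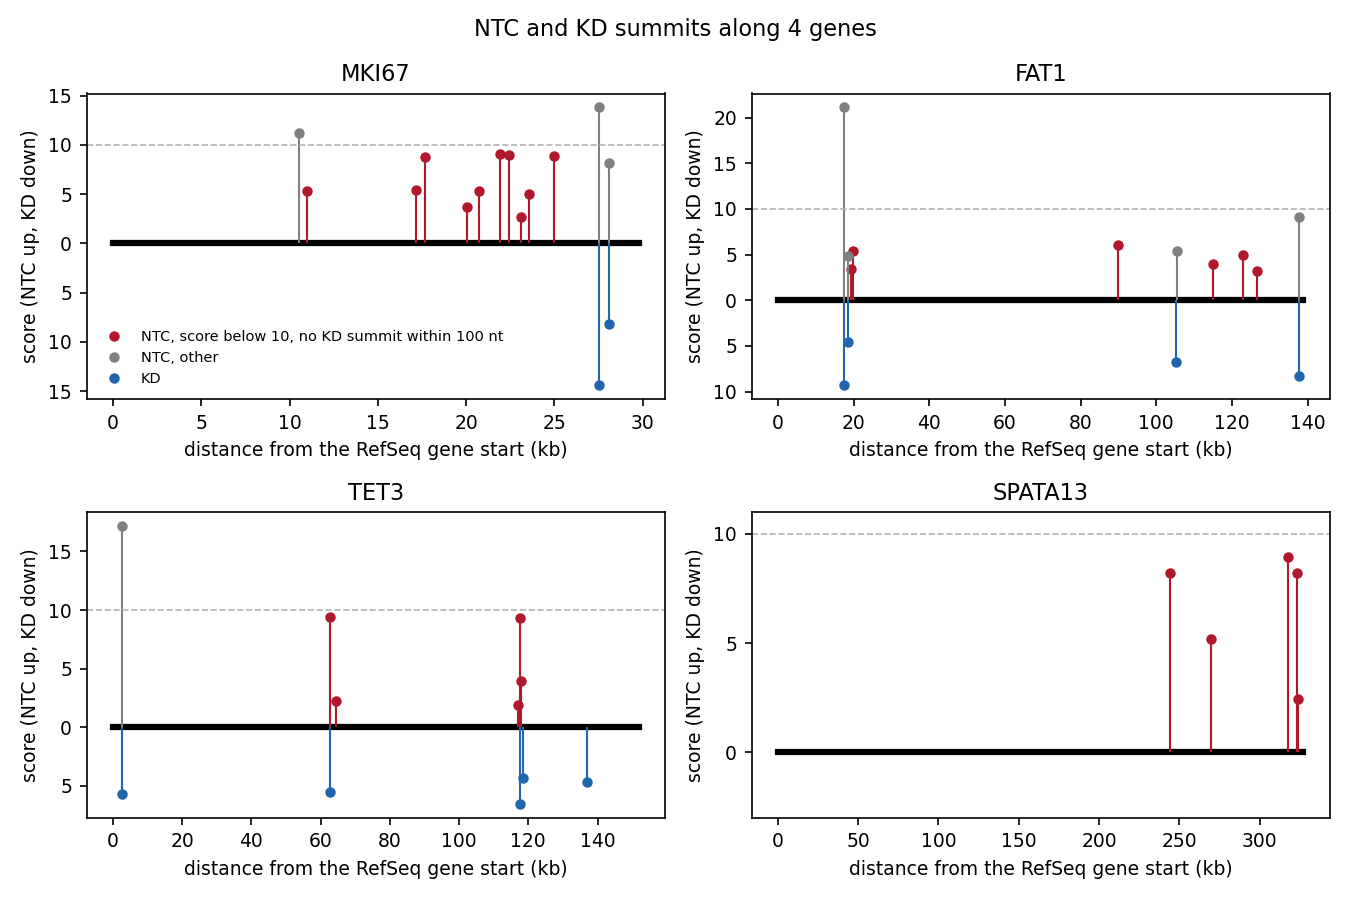
Summits along 4 genes by distance from the RefSeq gene start (kb); height is the score, NTC upward and KD downward, red for NTC summits below 10 without a KD summit within 100 nt, grey for other NTC summits, blue for KD, with a dashed line at 10. MKI67 has 10 red summits away from its 2 KD summits, and SPATA13 has 5 red summits and no KD summit.

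HAS2 makes hyaluronan, the matrix glycan, at the plasma membrane, and is the transcript named by the study's title. Its span (chr8:121612116-121641440) held a single NTC summit, at 121628932 with a score of 8.94, and it belongs to the absent weak summits, with the nearest KD summit 1324815 nt away. HAS2 mRNA was at 2436, 1633 and 2389 normalized counts in NTC, 784, 683 and 532 with sg1, and 365, 788 and 816 with sg2. All knockout libraries lay under the lowest control, and its log2 fold change in the mean of both guides was -1.73 ± 0.26 (limma adjusted p = 0.00826; 0.0789 without NTC-1 and 0.067 without NTC-3, which ends the call). Of 4 weak summits in hyaluronan genes 3 were absent. Another was in CEMIP2, a cell surface protein of hyaluronan breakdown, at a score of 7.96, and CEMIP2 kept a second weak summit within 10 nt of a KD one. CEMIP2 was at 1149, 1154 and 1064 in NTC and at 1396 to 2120 in the knockout libraries, above NTC without overlap (log2 fold change 0.57 ± 0.14, limma adjusted p = 0.0498). That call was lost without any 1 of the NTC libraries, with adjusted p of 0.205, 0.127 and 0.199, and without sg1-1, sg1-2, sg2-2 or sg2-3, with 0.0684, 0.0843, 0.0933 and 0.0683 in limma. HYAL3, a hyaluronidase family member, had 1 absent weak summit of 3.03 and a log2 fold change of -0.18 ± 0.15 (limma adjusted p = 0.536).

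VIRMA itself carried an absent weak summit, scored 6.11, with a KD summit of 5.86 in the same gene 7692 nt away. VIRMA mRNA was at 2196, 2122 and 2689 in NTC, 1437, 1560 and 1613 with sg1 and 1566, 1990 and 2170 with sg2. The sg1 values lay under NTC and those of sg2 overlapped with it, and the mean of both guides did not pass (log2 fold change -0.45 ± 0.13, limma adjusted p = 0.0818; 0.0122 without sg2-1 and 0.0178 with DESeq2). A guide can disable a gene without lowering its mRNA, so these counts check the labels only weakly. In the writer list 4 of 8 weak summits were absent: those of VIRMA and RBM15B and 2 in ZC3H13, a zinc finger subunit, scored 4.23 and 3.86, whose summit of 18.6 had a KD counterpart. In the reader list 1 of 3 was absent, in YTHDF1, a cytoplasmic reader, and in the eraser list 0 of 1. Over the whole lists, 0 of 8 writers, 0 of 11 readers and 0 of 2 erasers were called by limma or edgeR in the guides' mean. DESeq2 called 1 writer, VIRMA, and 0 readers and erasers; at an unadjusted p below 0.05 limma had 2 writers, 1 reader and 0 erasers.

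Other lists had shares on both sides of the 62.0% (60.6 to 63.4%) found over all 4687 weak summits in a single protein-coding gene, most with few summits and wide intervals. Of 18 weak summits in cell cycle genes 15 were absent (83.3%, 58.6 to 96.4%), 10 of them in MKI67; the others include CDK6, a G1 kinase, AURKA, a mitotic kinase, and CDK2, scored 4.41, 4.89 and 1.98. Of 19 in genes of RNA polymerase II and Mediator 5 were absent (26.3%, 9.15 to 51.2%), among them those of POLR2A, the largest polymerase subunit, and MED1. In chromatin regulators 34 of 58 were absent (58.6%), with 4 in KMT2C, in the Hippo list 14 of 25, with YAP1 and TEAD1 at 2.93 and 3.04, and in the WNT list 10 of 19. In the AP-1 and immediate early list 9 of 17 were absent, with 2 in MYC around a summit of 10.1 that had a KD counterpart, and in the forkhead, SOX and homeobox list 7 of 15. Genes with names starting ZNF, grouped after their values were seen, held 194 of 286 (67.8%, 62.1 to 73.2%) in 155 genes. The remaining lists, with 2 to 11 weak summits each, had shares from 33.3% for p53 and apoptosis (2 of 6) to both of 2 for cholesterol and fatty acid synthesis.

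The absence of a weak summit also moved with the RNA level of its gene in control cells, a value the rule did not use. Weak summits in a single protein-coding gene were put in 4 equal groups by the gene's mean normalized count in NTC, which is not scaled to gene length. Absent were 70.2% (67.5 to 72.9%) in the lowest group, with a median count of 98.9, then 62.9%, 58.5% and, in the highest with a median of 2271, 55.9% (52.96 to 58.77%). The median score of these groups stayed between 5.77 and 6.11. Within scores of 7 to 10 the share went from 58.6% to 43.5%, and within scores of 4 to 7 from 72.4% to 58.8%. Below 4 the groups read 81.5%, 69.6%, 75.8% and 67.7%, without an even decline. What part RNA level has in the absence was not tested.

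**Figure D4:**
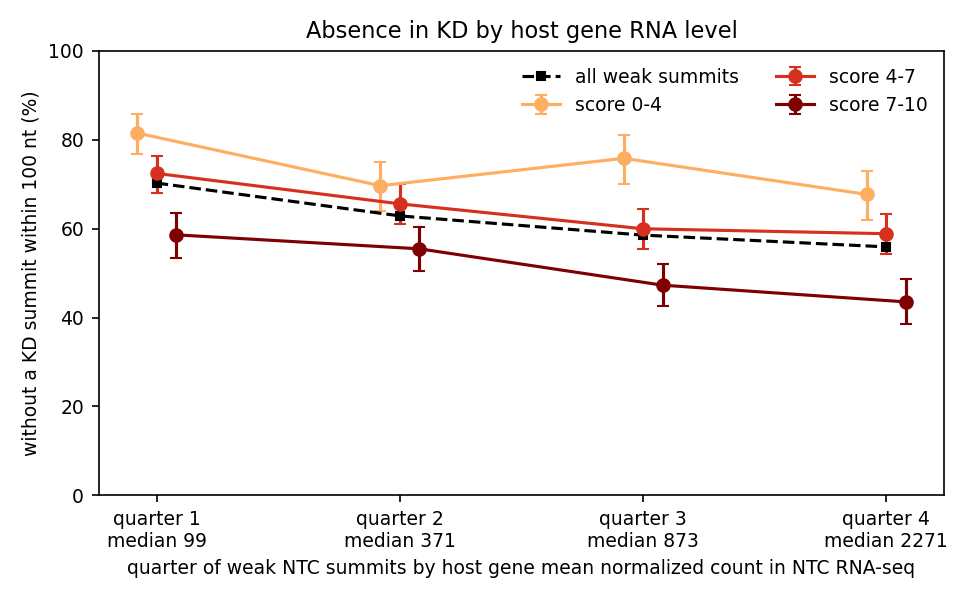
Share (%) of weak NTC summits without a KD summit within 100 nt by 4 equal groups of the host gene's mean normalized count in NTC RNA-seq, for 3 score ranges (colours, with exact binomial intervals at 95%) and for all weak summits (black squares). All weak summits go from 70.2% in the lowest group to 55.9% in the highest.

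The RNA-seq of the knockout lines allows a test of whether the host genes changed in level when VIRMA was disrupted. Of 2364 hosts 2324 were matched to the RNA-seq table and 2274 passed the filter on low counts. In the mean of both guides 46 host genes rose (2.02%) and 63 fell (2.77%), where 1.74% and 2.25% of all 15965 genes tested did (limma, adjusted p below 0.05). Of 7865 tested protein-coding genes without an NTC summit 1.72% rose and 2.54% fell. The median normalized count in NTC was 532 for hosts, 461 for those 7865 genes and 300 for all genes tested. Hosts and background thus differ in RNA level here and below. The median log2 fold change of the hosts was -0.01, and that of all tested genes was 0.00. With sg1 alone 4 hosts rose and 4 fell (0.176% each), against a background of 0.113% and 0.0814%, and with sg2 alone 108 rose (4.75%) and 164 fell (7.21%), against 4.19% and 4.57%. Hosts without and with a KD summit elsewhere are given side by side: 17 of 1108 rose and 29 fell in the first kind, and 28 of 1114 rose and 33 fell in the second. Genes with a kept weak summit and no absent one gave 22 higher and 35 lower of 1043. In the mean of both guides the share of hosts called was near the background. With sg2 the genes with kept summits only gave 6.04% higher and 7.29% lower, and the difference from the hosts was not tested.

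These counts rest on single libraries. Within sg2, library 1 (sg2-1) was far from the others: on the first principal component, with 53.3% of the variance, it was at 29.6, they were at -68.5 and -77.2 and sg1 at 46.1 to 56.8. The library sg1-3 stood apart on the second, at -34.6 where sg1-1 and sg1-2 were at 2.58 and 2.25. Without sg2-1 the hosts changed in the mean of both guides numbered 575 (25.3%, against 21.6% of all genes tested). Without sg2-1 and sg1-3 together they numbered 686 (30.2%, against 26.2% of all genes tested). Without NTC-1, NTC-2 and NTC-3 they numbered 4 (0.176% against 0.188%), 54 (2.37% against 1.81%) and 12 (0.528% against 0.451%). Without sg1-1, sg1-2 and sg2-2 they numbered 47 (2.07% against 1.46%), 44 (1.93% against 1.40%) and 58 (2.55% against 2.04%). With sg1 alone the count was 8 (0.352% of hosts, against 0.194% of all genes tested). It became 833 without sg2-1 (36.6% against 40.7%, so that the host share was then the lower). Without sg2-2 it was 2 (0.0880% against 0.106%) and without sg2-3 1 (0.0440% against 0.0814%). Without any single NTC or sg1 library limma gave 0 hosts (353 to 466 at an unadjusted p below 0.05) and 0 of all genes tested. With sg2 alone the count of 272 (11.96%, against 8.76% of all genes tested) became 1099 without sg2-1 (48.3% against 44.8%). Without sg2-2 and sg2-3 it was 105 (4.62% against 2.98%) and 118 (5.19% against 3.70%). Without NTC-1, NTC-2 and NTC-3 it was 76 (3.34% against 2.22%), 162 (7.12% against 4.88%) and 112 (4.93% against 3.38%). Without sg1-1 and sg1-2 it was 176 (7.74% against 5.51%) and 181 (7.96% against 5.54%). The RNA-seq libraries held 13975173 to 22051705 gene reads. Markers fit the line in part: VIM (18031 to 27031 normalized counts), CD44, AXL, MSN, CAV1 and ITGB1 were high, and ESR1, PGR, CDH1 and GATA3 reached at most 42.4, but ERBB2 was at 911 to 1820, EPCAM at 92.3 to 316 and KRT19 at 5701 to 9205. Of the markers of other cells, ALB of liver reached 4.55, PTPRC of leukocytes 5.23 to 108 and PECAM1 of endothelium 235 to 869, and their part in the results was not tested.

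With each guide in the same direction 3 host genes rose and 2 fell, where 0.0877% and 0.0626% of all genes tested did; both guides are compared with the same NTC libraries. ZNF114, a zinc finger gene, had an absent weak summit of 7.71 and a kept one of 5.45. It was at 77.02, 84.95 and 60.47 in NTC, at 247, 220 and 244 with sg1 and at 527, 355 and 359 with sg2 (mean log2 fold change of the guides 2.06 ± 0.17, limma adjusted p = 0.001). Its sg2 values all lay above those of sg1, which lay above NTC.

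LRP8, a receptor of apolipoprotein E and reelin, had a single NTC summit, absent and weak, of 4.48, placed 1963 nt before the gene end. It was at 455, 519 and 434 in NTC, 817, 874 and 965 with sg1 and 871, 1014 and 946 with sg2, so the guides lay together above NTC (0.96 ± 0.11, limma adjusted p = 0.00324). ADARB1, which edits adenosine to inosine in RNA, had 2 absent weak summits, of 8.34 and 3.92, the first 162 nt from a KD summit. It was at 183, 187 and 165 in NTC and at 304 to 368 in the knockout libraries (0.85 ± 0.11, limma adjusted p = 0.00669; 0.061 without NTC-1).

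FAM43A had an absent weak summit of 1.84 and a kept one of 9.68. It was at 473, 347 and 463 in NTC and at 186 to 214 in the knockout libraries, which lay close together (-1.07 ± 0.13, limma adjusted p = 0.00447; 0.0597 without NTC-1). SIX4, a homeobox transcription factor, had 2 absent weak summits, of 7.05 and 6.52, with KD summits 540 and 418 nt away. It was at 1622, 1332 and 1756 in NTC and at 753 to 919 in the knockout libraries, again without overlap (-0.90 ± 0.12, limma adjusted p = 0.00679; 0.0688 without NTC-1).

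**Figure D5:**
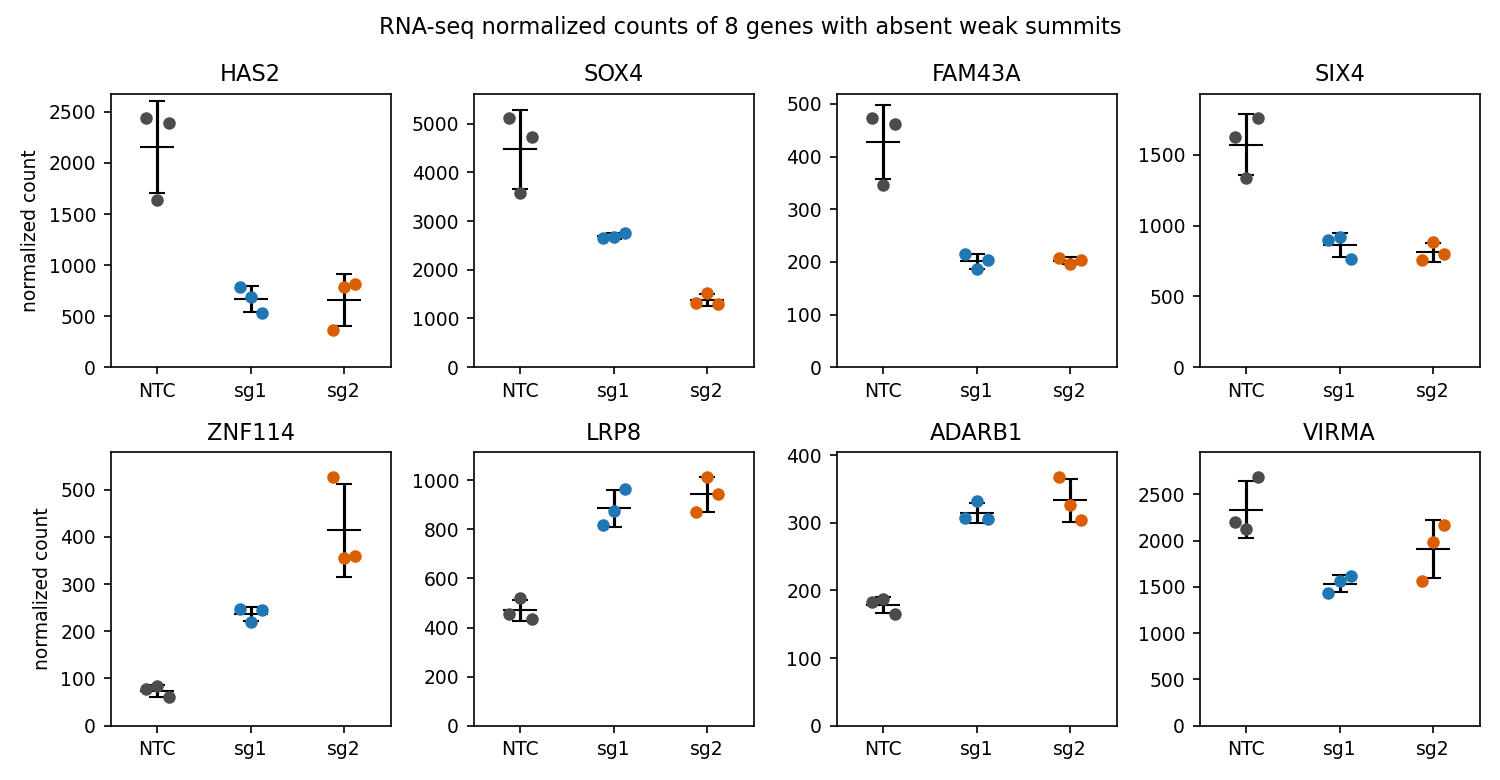
Normalized RNA-seq counts in each of the 9 libraries (points; NTC, sg1 and sg2, with mean and SD as bars, n = 3) for 8 genes with an absent weak summit. HAS2, SOX4, FAM43A and SIX4 lie lower in all knockout libraries and ZNF114, LRP8 and ADARB1 higher, while the sg2 values of VIRMA overlap with NTC.

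Of the hosts past the test in the mean of both guides, 43 of 46 that rose and 53 of 63 that fell had no overlap between the 6 knockout and the 3 NTC libraries, as had 243 of 277 and 304 of 359 among all genes tested. SOX4, a transcription factor of progenitor cells, fell in the mean of both guides. It was at 5108, 3568 and 4730 in NTC, 2656, 2669 and 2753 with sg1 and 1308, 1518 and 1302 with sg2 (-1.20 ± 0.12, limma adjusted p = 0.00243). Its absent weak summit of 5.99 stood 475 nt from a KD summit, beside a kept summit of 19.7. Other falls, as log2 fold changes in the mean of both guides, were -1.03 for PECAM1, an adhesion molecule of endothelium, -1.04 for KLF9, a Krüppel-like repressor, and -1.097 for ST8SIA1, a ganglioside sialyltransferase. H6PD, a glucose-6-phosphate dehydrogenase of the endoplasmic reticulum with 3 absent weak summits, was at -1.01 (-0.37 with sg1 and -1.65 with sg2). C1RL, a complement protease-like gene, was at -1.27 (-0.47 with sg1 and -2.08 with sg2). SLC45A1, a sugar transporter, was at -1.13 (-0.41 with sg1 and -1.86 with sg2). Of 18 alternative fits, C1RL lost the call in 10 and SLC45A1 in 11. PCDHB10 and PCDHB9, protocadherins, were at -1.17 and -1.12 and ZC3H11B at -1.08, but these have near-identical relatives and their counts are uncertain.

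Among the rises reported here, VDR, the vitamin D receptor, was the first by size after ZNF114. Its 3 NTC libraries averaged 40.9 ± 10.6 (SD), those of sg1 94.0 ± 21.9 and those of sg2 161 ± 54.0 (log2 fold change 1.56 ± 0.26), and its only NTC summit, of 3.63, was absent and weak. NEXN, an actin-binding protein, rose by 1.19, TBC1D2, a Rab GTPase activating protein, by 1.15 and MISP, a spindle positioning protein, by 0.96 on the log2 scale. JPH1, a junctophilin, rose by 1.37 (0.94 with sg1 and 1.79 with sg2) and TENT5B, a poly(A) polymerase family member, by 1.25 (0.67 and 1.84). F2RL3, a thrombin receptor, rose by 1.04 (0.40 and 1.69), RRS1, a ribosome biogenesis factor, by 1.02 (0.49 and 1.55) and GPATCH4 by 0.95 (0.50 and 1.40). Limma adjusted p values of these and the falls named with them, in the mean of both guides, ran from 0.00243 to 0.0412. With sg1 alone these rises and falls did not pass (limma adjusted p from 0.0564 to 0.354). Of the 30 genes called in the mean of both guides and named by the rule, 27 lost the call without NTC-1 and 21 without NTC-3 (adjusted p up to 0.205 and 0.199), 5 without NTC-2, 7, 8 and 4 without sg1-1, sg1-2 and sg1-3, 6 and 5 without sg2-2 and sg2-3, and 0 without sg2-1. ZNF114, LRP8 and SOX4 kept it in every alternative fit run.

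Among hosts of the lists, CA12, a carbonic anhydrase, had a log2 fold change in the mean of both guides of -1.005 (limma adjusted p = 0.00791). CA12 was at -0.40 with sg1 (limma adjusted p = 0.158) and -1.61 with sg2 (limma adjusted p = 0.00103), and its sg1 values overlapped with NTC. SLC2A3, a glucose transporter, was at -0.53 in the mean (limma adjusted p = 0.0213). In that mean 2 of 5 tested hosts of the hypoxia and glycolysis list fell and 0 rose. Over the whole list 9 of 22 tested genes fell and 0 rose, where 2.25% of all genes tested fell. SPRED1, an inhibitor of ERK signalling, was at -0.67 and COL6A3, a collagen, at -0.59 in the mean of both guides (limma adjusted p = 0.00734 and 0.00826). COL6A3 was at 1274, 1298 and 1374 in NTC, 1242, 1313 and 1303 with sg1 and 645, 567 and 560 with sg2, so only sg2 stood apart. Of chromatin regulators 0 of 18 tested hosts were called by limma or edgeR and 1 by DESeq2, with 1 at an unadjusted p below 0.05 in limma. Of the Hippo list 0 of 7 hosts were called by limma or edgeR and 1 by DESeq2, with 1 at an unadjusted p below 0.05 in limma. Over the whole Hippo list 4 of 19 tested genes rose in limma and 0 fell, against the background of 1.74% for rises. EdgeR called 3 of the 19 and DESeq2 8. In the WNT list 1 of 8 hosts was called by each of limma, edgeR and DESeq2, and it rose, as did 1 of the 23 genes of the whole list in limma. In the cell cycle list 1 of 6 hosts rose in limma, 0 were called by edgeR and 2 by DESeq2. Over the whole list 4 of 28 genes rose and 1 fell in limma, against backgrounds of 1.74% and 2.25%. EdgeR called 3 of the 28 and DESeq2 10. MAML1, a Notch coactivator, had 2 absent weak summits with KD summits 126 and 120 nt away, although the RNA-seq table lists it at 0 in 8 libraries and at 1.3 in sg1-3.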

How the data were processed

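MeRIP-seq summits and RNA-seq of MDA-MB-231 cells were analysed; groups came from the sample titles. Tools named by the submitters' processing notes, without roles, are MACS2, STAR, HTSeq, cutadapt, DESeq2 and FastQC 0.11.8, with hg38. Each deposited summit has a position and a -log10 score, from p or q (which, no source here says). The authors' RNA-seq table holds a normalized signal, read counts divided by 1 factor per library; all values above 0 were whole multiples of a step within 0.1 read, which gave back the reads (in NTC-2, whose step is close to 1, less certainly).

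Members, lists, genes and tests were chosen with earlier results of these data known. Genes reaching 10 in at least 3 libraries were tested, 15965 of 38616, with limma 3.58.1 (R 4.3.3) on log2(value + 1), all 9 libraries together, trended prior, Benjamini-Hochberg; the planned edgeR test needs counts, so edgeR 4.0.16 and DESeq2 1.42.0 ran on the recovered reads as alternatives. This scale understates the change of low genes. The fit was tested on simulated data. Shares have exact binomial (Clopper-Pearson) intervals at 95%. A host is a protein-coding gene whose RefSeq span (GRCh38.p14), and no other such span, holds the summit; exons were not used. Whether counting used strand is unknown here, so overlapping and antisense genes are uncertain.

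Genes named are the 10 hosts with most members, 3 on each side of each limit, hosts changed with each guide or, without overlap of libraries, in their mean (up to 12 per direction), all hosts in the m6A and hyaluronan lists, up to 4 from other lists, HAS2 and VIRMA. Results for some genes the rule names are not reported here.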

Additional observations from a re-analysis of the deposited data

Results flagged for a closer look

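For 33 of the named host genes the change differed between the guides, by limma's test of sg2 against sg1 (Benjamini-Hochberg adjusted p from 0.00267 to 0.0484). The same test called 4758 of all 15965 genes tested, so a difference between the guides was common and not particular to these hosts. For 10 genes the log2 difference, sg2 minus sg1, was positive: 0.78 for ZNF114, 0.84 for JPH1, 1.16 for TENT5B, 1.297 for F2RL3, 1.05 for RRS1, 0.90 for GPATCH4, 0.41 for CLP1, 0.45 for SNAI2, 1.17 for AURKA and 0.51 for CDK2. For 23 genes it was negative: -1.12 for NAV1, -0.85 for AHNAK2, -1.61 for C1RL, -0.97 for SOX4, -1.23 for PCDHB10, -1.45 for SLC45A1, -1.07 for PCDHB9, -1.004 for ZC3H11B, -0.67 for PECAM1, -1.28 for H6PD, -0.53 for TLE3 and -0.44 for SPRED1. The others were -0.93 for INSR, -1.31 for IGF1R, -0.83 for ZEB2, -0.33 for TNC, -1.16 for COL7A1, -1.12 for COL6A3, -0.49 for PHC2, -0.76 for VEGFA, -1.21 for CA12, -0.89 for STAT2 and -0.81 for RELA. This fit has no replicate block, although sg1 and sg2 libraries of the same number deviated together (correlations 0.156 to 0.258). A replicate block within the knockout libraries, added after seeing the data, kept sign and call of all 33 (limma adjusted p up to 0.0495). A replicate block in all 9 libraries, likewise added for this comparison, kept 30 calls and lost those of JPH1, TNC and RELA (limma adjusted p up to 0.062). Both guides' fitted changes had the same sign against NTC in 23 of the 33 genes. The guide and its 3 libraries cannot be told apart here, and sg2-1 lay far from sg2-2 and sg2-3.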

How the results depend on the processing

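Counts of absent weak summits stayed within 1.5 times of 3560, from 2898 (500 nt) to 4364 (KD summits of 5 or more only). The absent share of weak summits was 70.9% at 50 nt, 57.9% at 200 nt, 51.7% at 500 nt, 67.5% for scores below 8, 57.2% below 15 and 77.8% with KD summits of 5 or more only. Host genes changed in the mean of both guides numbered 109 (4.79% of hosts, against 3.98% of all genes tested). They numbered 61 without a filter on low counts (2.62%, against 0.870% of 38616 genes) and 277 with DESeq2 (12.2% against 9.96%). With the filter raised to 50 in at least 3 libraries they numbered 125 (5.84%, against 5.66% of 11910 genes). The gap between hosts and all genes thus changed with the filter on low counts. With a replicate block in all libraries they numbered 55 (2.42% against 1.82%). With 1 library left out they ran from 4 without NTC-1 (0.176% against 0.188%) to 575 without sg2-1 (25.3% against 21.6%). Without sg2-1 and sg1-3 they numbered 686 (30.2% against 26.2%). With sg1 (8, 0.352% of hosts against 0.194% of all genes) they numbered 4 at a pseudocount of 5 (0.176% against 0.138%). Without a filter they numbered 4 (0.172% against 0.0544%). DESeq2 gave 269 (11.8% against 13.9%) and a fit of only the groups compared 743 (32.7% against 37.4%). With the block in all libraries limma gave 0 (541 at an unadjusted p below 0.05), and edgeR without a block gave 7 (0.308% against 0.169%). The replicate block in the sg1 and sg2 libraries only, a fit chosen after seeing the data, gave 132 (5.80% against 7.50%). Leaving out 1 library gave 0 to 833 with sg1, the latter without sg2-1 (36.6% against 40.7% of all genes). Leaving out sg2-1 and sg1-3 gave 834 (36.7% against 41.1%). In limma 0 hosts passed without any single NTC or sg1 library (353 to 466 at an unadjusted p below 0.05). Without sg2-2 they numbered 2 (0.0880% against 0.106%) and without sg2-3 1 (0.0440% against 0.0814%). With sg2 host genes changed numbered 272 (11.96%, against 8.76% of all genes). DESeq2 gave 472 (20.8% against 16.5%) and a fit of only the groups compared 131 (5.76% against 4.00%). With 1 library left out they ran from 76 without NTC-1 (3.34% against 2.22%) to 1099 without sg2-1 (48.3% against 44.8%). Without sg2-1 and sg1-3 they numbered 1236 (54.4% against 50.2%). For the mean of both guides the fit already holds all groups. The cause was not tested. Deviations of NTC libraries were not shared with knockout libraries of the same number (correlations -0.131 to 0.0202), whereas sg1 and sg2 libraries of the same number did deviate together (0.156 to 0.258), so the block was not used in the main test; with it, 5 of the 30 calls of named genes were lost. Of 810 pairs of a named gene and an alternative, 703 kept direction and side of the threshold, 94 lost the call, 10 gained it and 3 reversed, none of them called: with 1 library left out MKI67 ran from -0.37 to 0.24 (without NTC-3), KMT2A from -0.46 to 0.074 (without NTC-3) and HIVEP3 from -0.062 (without NTC-1) to 0.55. The lack of MeRIP-seq replicates and their unknown depth limit every share.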
